A study of Homo sapiens with 24 samples.

Results

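The genes described here are 56 genes of mitosis and the kinetochore, taken by symbol from a list that names their known functions and not their measured values. The list was, however, chosen with earlier results of these data known. They were found by Entrez identifier among the 25702 identifiers of each RNA-seq count file, and all 56 passed the filter on low counts that left 13356 genes for testing. RNA-seq had been performed on 24 samples of IMR90 cells, an established line of human lung fibroblasts, at passage 23 to 28. Every sample, controls included, carried ER:HRAS(G12V), oncogenic RAS fused to the oestrogen receptor and introduced by retrovirus, which is inactive until 4-hydroxytamoxifen (4OHT) is given. The 4 groups of 6 biological replicates were ER:HRAS(G12V) cells with an MSCV vector and no 4OHT (growing), cells with MSCV miR30 shHMGA1 and no 4OHT (shHMGA1), cells with the MSCV vector and 6 days of 4OHT (RIS, RAS-induced senescence), and cells with MSCV miR30 shHMGA1 and 6 days of 4OHT (RIS+shHMGA1). HMGA1 is a high mobility group protein that binds AT-rich DNA in chromatin. The knockdown rests on 1 hairpin construct, and the vector samples were not given another hairpin.

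At mitosis a dividing cell condenses its chromosomes, builds a spindle of microtubules and attaches each chromosome to it through the kinetochore, the protein assembly on the centromere. The spindle checkpoint holds the cell before anaphase until all kinetochores are attached, after which the anaphase-promoting complex marks securin and cyclin B for destruction, separase opens the cohesin ring and the chromatids part. Most of these genes are transcribed late in the cell cycle, when the MuvB core complex acts with MYBL2 and FOXM1, whereas in arrested cells the same core takes part in the repressive DREAM complex. Senescence is a stable arrest, and a loss of mitotic transcripts is among its best known features.

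Total counts ranged from 8698070 to 23103424 reads per sample, with a median of 10604084. *HMGA1* lay between 54.4 and 262 CPM (counts scaled to the same library size in every sample after TMM normalisation) in the 12 hairpin samples. In the 12 vector samples it lay between 639 and 861 CPM. In *HMGA1* level the hairpin samples were split by replicate number. In shHMGA1 *HMGA1* lay at 98.7 to 143 CPM in replicates 1 to 4 and at 54.4 to 58.1 CPM in replicates 5 and 6. In RIS+shHMGA1 it lay at 197 to 262 CPM in replicates 1 to 4 and at 60.0 to 75.1 CPM in replicates 5 and 6. The part of this split in the hairpin results was not tested. Fibroblast markers, 9 genes summed, lay between 22790 and 40300 CPM in 5 growing samples, between 14250 and 20250 CPM in shHMGA1, between 5720 and 9132 CPM in 5 RIS samples and between 4535 and 5910 CPM in RIS+shHMGA1. The sum mostly followed collagen genes. In the 5 growing and 5 RIS samples mean *COL1A1* was 16220 and 1847 CPM, and mean *COL1A2* 6931 and 693 CPM. Mean *VIM* was 4909 and 4077 CPM and mean *PDGFRA* 141 and 109 CPM. The other markers of the sum also had lower means in RIS. Summed epithelial markers reached at most 8.18 CPM, leukocyte markers 3.43 CPM and endothelial markers 125 CPM in any of the 24 samples. The endothelial sum was nearly all from *TEK*, a receptor tyrosine kinase, which lay at 75.4 to 109 CPM in the 5 growing samples and 13.2 to 27.3 CPM in the 5 RIS samples, while the other 4 endothelial markers (*PECAM1*, *CDH5*, *KDR* and *VWF*) reached at most 1.27 CPM in any sample. The part of these markers in the results was not tested.

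A pair of libraries stood apart from their groups. On the first principal component of all tested genes, which held 73.9% of the variance, growing replicate 4 lay at 77.3 while the other growing samples lay between −84.3 and −57.2. RIS replicate 2 lay at −77.1 while the other RIS samples lay between 16.9 and 62.1. Their fibroblast marker sums were 5187 and 26910 CPM. Both kept *HMGA1* at 667 to 713 CPM, the level of vector cells. Both were kept in their labelled groups, and each comparison that includes them was also fitted without them, on 22 libraries.

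The mitotic genes showed the same split. The median log2 CPM of the 56 genes was 4.98 to 5.63 in 5 of the growing samples and 2.20 in growing replicate 4. It was 5.24 to 5.85 in the 6 shHMGA1 samples and 2.39 to 2.71 in the 6 RIS+shHMGA1 samples. Among RIS samples it was 2.18 to 2.77 in 5, and 5.43 in RIS replicate 2. Growing and RIS samples therefore overlapped with all libraries, whereas the hairpin groups did not overlap. Summed over the 56 genes, the samples held 2644 to 3945 CPM in shHMGA1 and 589 to 745 CPM in RIS+shHMGA1, 2401 to 3485 CPM in growing with 604 CPM in replicate 4, and 502 to 661 CPM in RIS with 2936 CPM in replicate 2. No member was at 0 counts in any sample.

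**Figure D1:**
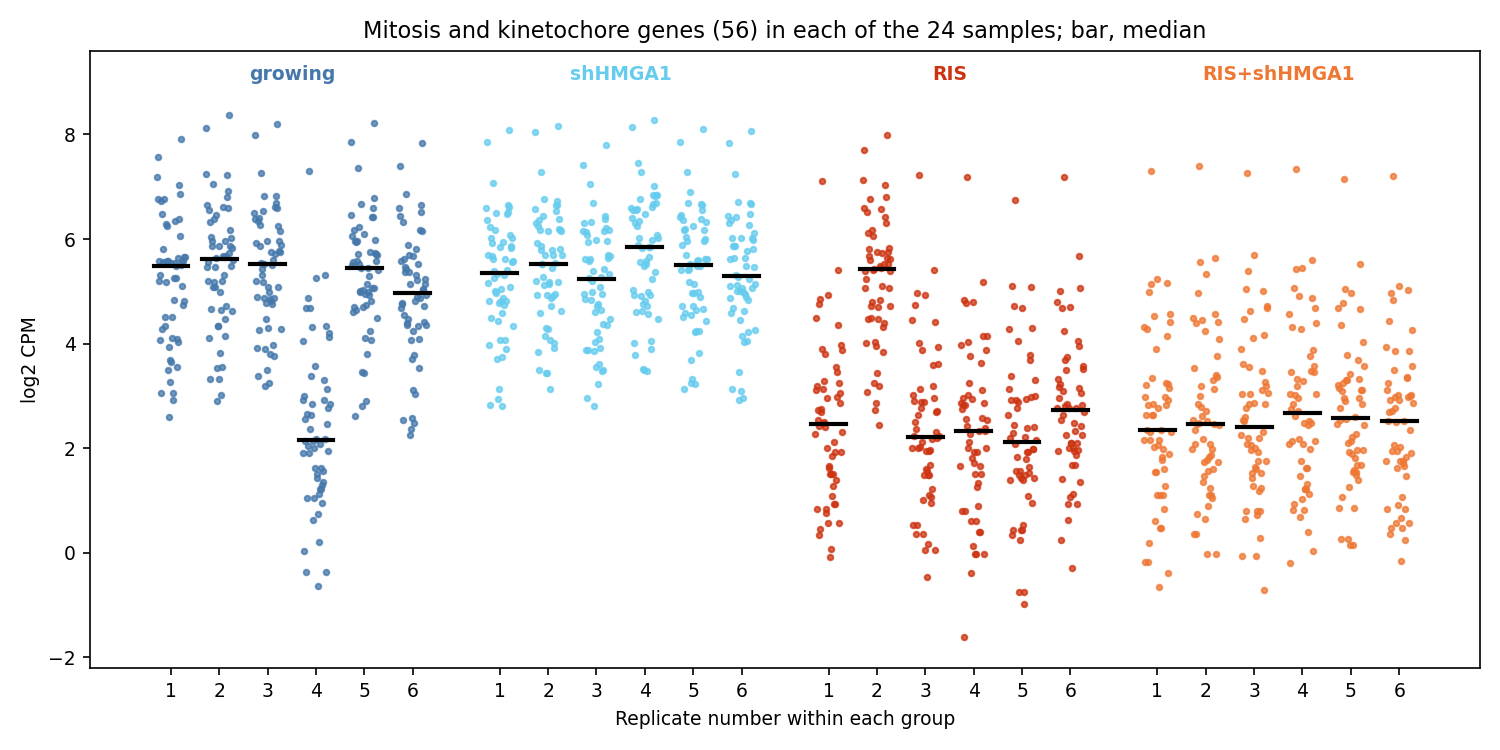
Points give log2 CPM (vertical axis) of the 56 mitosis and kinetochore genes in each of the 24 samples, ordered along the horizontal axis by group and replicate number, and bars give each sample's median. Growing replicate 4 sits at the height of the RIS samples and RIS replicate 2 at the height of the growing samples, while the 6 shHMGA1 and 6 RIS+shHMGA1 samples form separate bands.

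The first comparison asked how RAS activation changed mitotic transcripts in cells with the hairpin, whose 12 libraries include neither of the libraries that stood apart. In RIS+shHMGA1 against shHMGA1, 53 of the 56 genes were lower, 0 were higher and 3 (*BUB3*, *MAD2L1* and *ESPL1*) did not pass the thresholds, which asked for a log2 fold change beyond 0.58 in either direction and an adjusted p (edgeR quasi-likelihood test, Benjamini-Hochberg) under 0.01. Over all genes tested, 19.5% were lower and 19.6% higher. The median log2 fold change was −2.94 over the 56 genes and −0.02 over all genes. For 53 of the 56 genes the highest RIS+shHMGA1 sample lay below the lowest shHMGA1 sample, a separation found in 22.5% of all genes. The same 3 genes were the ones that overlapped. The pair of libraries that stood apart is in neither group. It enters this fit through the low-count filter, the normalisation and the shared estimate of spread. Without the pair, 53 were again lower, against 21.9% of all genes lower and 22.5% higher. In bulk samples, fewer dividing cells and less of these transcripts per cell cannot be told apart.

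Genes that mark or drive proliferation fell furthest as a group, with 4 of 4 lower and a median log2 fold change of −3.93. *MKI67* encodes Ki-67, the antigen that coats mitotic chromosomes and is the usual marker of cycling cells. Its level was 70.8 CPM at the lowest, 90.7 at the median and 97.1 at the highest in shHMGA1, and 3.37, 4.34 and 5.52 CPM in RIS+shHMGA1. The groups did not come near each other, and the level in RIS+shHMGA1 was 4.96% of that in shHMGA1 (log2 fold change −4.33, SE 0.87, adjusted p = 0.000494). *TOP2A*, topoisomerase II alpha, which untangles sister chromatids, went from 172, 231 and 282 CPM (lowest, median, highest) to 14.9, 21.2 and 25.7 CPM, an 11.5-fold decrease (log2 fold change −3.53, SE 0.61, adjusted p = 0.000233). For *FOXM1*, the transcription factor of the G2/M genes, the values were 78.8, 81.2 and 88.0 CPM against 5.80, 8.18 and 9.23 CPM, 10.3-fold lower (log2 fold change −3.36, SE 0.61). *MYBL2*, its partner on the MuvB complex, had the largest decrease of the 56 genes, 27.4-fold (log2 fold change −4.77, SE 0.84, adjusted p = 0.00025).

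Regulators of mitotic entry were lower in 8 of 8, with a median of −2.44. The kinases of this group fell unequally. *PLK4*, which starts centriole duplication, fell 13.5-fold, and *PLK1*, which acts from entry to cytokinesis, 10.6-fold, whereas *AURKA*, the centrosomal Aurora kinase, fell 2.24-fold (log2 fold change −1.16, SE 0.20, adjusted p = 0.000252). In *AURKA* the shHMGA1 samples ran from 58.3 to 94.9 CPM with a median of 67.1 and the RIS+shHMGA1 samples from 27.3 to 33.5 CPM with a median of 31.7, without overlap. Of the CDC25 phosphatases, which remove the inhibitory phosphate from CDK1, *CDC25C* was 7.15-fold, *CDC25B* 3.72-fold and *CDC25A* 3.19-fold lower. *CDC25B* was the most abundant of the group by total reads, at 70.1 to 82.7 CPM with a median of 77.6 in shHMGA1 and 19.5 to 22.2 CPM with a median of 20.8 in RIS+shHMGA1. *CCNB2*, a cyclin that activates CDK1, and *CCNF*, a cyclin that serves a ubiquitin ligase, were 5.85-fold and 5.04-fold lower.

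The spindle checkpoint was divided. 4 of its 6 genes were lower by 6.61-fold to 9.43-fold: the kinases *TTK* and *BUB1*, the pseudokinase *BUB1B* and *CDC20*, the activator of the anaphase-promoting complex that the checkpoint holds back. *CDC20* lay at 71.7 to 109 CPM (median 86.4) in shHMGA1 and at 9.15 to 11.7 CPM (median 10.1) in RIS+shHMGA1. *BUB3*, a WD40 protein that brings BUB1 and BUB1B to the kinetochore, had 133, 154 and 176 CPM (lowest, median, highest) in shHMGA1 and 141, 155 and 169 CPM in RIS+shHMGA1. The ranges coincided (log2 fold change 0.04, SE 0.12, adjusted p = 0.787). *MAD2L1* encodes MAD2, the protein that binds CDC20 and forms the core of the checkpoint signal. Its samples ran from 41.8 to 81.4 CPM with a median of 54.0 in shHMGA1 and from 28.6 to 47.0 CPM with a median of 38.6 in RIS+shHMGA1, and the ranges overlapped (log2 fold change −0.57, SE 0.24, adjusted p = 0.0401). Within replicate numbers, *MAD2L1* was lower in 5 of 6 and its log2 differences were −1.03 to 0.03.

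All 4 genes of the chromosomal passenger complex, which corrects wrong attachments and later directs cytokinesis, were lower. *CDCA8*, which encodes borealin, was at 9.96% of its level in shHMGA1, from 38.5 to 56.5 CPM (median 43.7) down to 4.06 to 5.66 CPM (median 4.42). *AURKB*, the kinase of the complex, fell 5.63-fold, *BIRC5*, which encodes survivin, 5.32-fold and *INCENP*, the scaffold, 4.33-fold. The *BIRC5* samples ran from 90.5 to 155 CPM with a median of 106 in shHMGA1 and from 13.7 to 30.0 CPM with a median of 22.6 in RIS+shHMGA1, again without overlap.

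Centromere and inner kinetochore genes had the smallest median decrease of the role lists, with the anaphase genes close behind. Outer kinetochore genes were lower by more. Of the inner genes 7 of 7 were lower with a median of −1.81 and a range from −2.75 to −0.82. *CENPA*, the histone H3 variant that marks the centromere, was 6.73-fold lower. Of the constitutive centromere proteins that bind around it, *CENPI* was 6.42-fold, *CENPM* 5.44-fold and *CENPH* 3.51-fold lower, while *CENPK* was 2.14-fold and *CENPN* 1.76-fold lower, and *CENPW* was at 33.4% of its level in shHMGA1. *CENPN*, which reads CENP-A nucleosomes, had the smallest change of the 53 genes called, from 57.9 to 89.5 CPM (median 67.9) down to 31.2 to 52.1 CPM (median 39.1). The *CENPK* samples ran from 24.4 to 44.7 CPM with a median of 30.9 in shHMGA1 and from 8.14 to 19.3 CPM with a median of 16.1 in RIS+shHMGA1 (log2 fold change −1.10, SE 0.31, adjusted p = 0.00439). All 7 outer genes were lower with a median of −3.27 and a range from −3.70 to −2.78. In hairpin cells each outer gene thus had a larger decrease than each inner gene. The nearest pair, *SPC25* (−2.78, SE 0.51) and *CENPA* (−2.75, SE 0.54), differed by less than their standard errors, and the difference between the lists was not tested. In vector cells (RIS against growing) the order did not hold in full. On 22 libraries *CENPA* (−3.10) fell by slightly more than *NDC80* (−3.08), while the other inner genes fell by less than each outer gene. With all 24, *CENPM* (−1.83) and *CENPA* (−1.82) fell by more than *CENPF* (−1.49).

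In the outer kinetochore, all 4 genes of the NDC80 complex, the plate that grips microtubules, fell between 6.87-fold (*SPC25*) and 9.63-fold (*NDC80*), with *SPC24* at 8.49-fold and *NUF2* at 7.03-fold. *KNL1*, the scaffold that recruits checkpoint proteins, fell 13.0-fold. *CENPF* and *CENPE*, a large coiled-coil protein and a kinesin that carries chromosomes to the spindle equator, fell 12.2-fold and 12.4-fold. *CENPF* lay at 33.7 to 61.3 CPM (median 52.8) in shHMGA1 and at 3.07 to 6.02 CPM (median 3.68) in RIS+shHMGA1. *CENPE* lay at 15.0 to 31.7 CPM (median 27.8) and at 1.4 to 3.01 CPM (median 2.12), so that both genes were separated between the groups.

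Motors and spindle factors fell in 8 of 8 kinesins and 9 of 9 spindle and cytokinesis genes. Among the kinesins the decreases were close to each other, from 7.68-fold for *KIF14* and *KIF18A* to 16.3-fold for *KIF20A*, the motor of the central spindle. *KIF2C*, which depolymerises microtubules at centromeres, was at 7.99% of its level in shHMGA1. *KIF4A*, a chromosome-bound motor, fell 10.4-fold and *KIF15*, which supports *KIF11* in holding the poles apart, 7.90-fold. *KIF23*, which bundles midzone microtubules with the centralspindlin complex, went from 71.6 to 97.5 CPM (median 86.0) to 7.87 to 13.6 CPM (median 9.98), and *KIF11*, the tetrameric motor that pushes the spindle poles apart, from 31.1 to 57.4 CPM (median 50.2) to 3.64 to 5.76 CPM (median 4.71). Of the spindle and cytokinesis genes, *ASPM*, a spindle pole protein, fell furthest at 23.3-fold. *PRC1*, which cross-links the midzone, fell 14.4-fold and *CEP55*, which starts abscission at the midbody, 13.6-fold. The spindle assembly factors *TPX2*, *DLGAP5*, *NUSAP1* and *HMMR* had log2 fold changes of −3.32, −3.06, −2.93 and −2.81. *ANLN*, anillin of the cleavage furrow, had more reads than any of the 56 genes in shHMGA1, at 223 to 311 CPM (median 273), and 14.6 to 29.3 CPM (median 20.8) in RIS+shHMGA1, a decrease of 12.7-fold. *ECT2*, the exchange factor that activates RhoA at the furrow, stood apart from the rest of its list with a decrease of 2.49-fold (log2 fold change −1.32, SE 0.22, adjusted p = 0.000224), from 74.0 to 129 CPM (median 101) to 32.3 to 49.5 CPM (median 40.9).

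Of the 3 anaphase genes, 2 were lower. *UBE2C*, the ubiquitin-conjugating enzyme of the anaphase-promoting complex, fell 7.56-fold, from 35.1 to 64.5 CPM (median 50.2) to 4.95 to 8.34 CPM (median 6.33). *PTTG1*, which encodes securin, fell 3.57-fold, from 65.0 to 114 CPM (median 71.6) to 16.4 to 26.2 CPM (median 22.4). *ESPL1* encodes separase, the protease that securin restrains. Its samples ran from 19.2 to 24.7 CPM with a median of 21.9 in shHMGA1 and from 11.9 to 25.5 CPM with a median of 19.1 in RIS+shHMGA1, and the second range contained the first (log2 fold change −0.26, SE 0.20, adjusted p = 0.261). Within replicate numbers *ESPL1* was lower in 4 of 6. Its RIS+shHMGA1 samples lay at 17.1 to 25.5 CPM in replicates 1 to 4 and at 11.9 CPM in replicates 5 and 6. The log2 differences were −0.84 and −0.68 in replicates 5 and 6, and −0.52 to 0.19 in replicates 1 to 4.

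In vector cells, the same question gave a result that turned on the pair of libraries that stood apart. In RIS against growing with all 24 libraries, 0 of the 56 genes passed the thresholds, as did 0% of all genes lower and 0% higher. All 56 log2 fold changes were below 0, with a median of −1.72, and 55 were lower at an unadjusted p under 0.05, which held for 20.1% of all genes. The adjusted p of the 56 genes ran from 0.014, the smallest value of any gene, to 0.716 for *BUB3*. No gene of the 56 was separated between the groups, against 0.21% of all genes. Without growing replicate 4 and RIS replicate 2, 55 genes were lower, with *BUB3* the exception, against 20.5% of all genes lower and 19.2% higher, and the median was −3.07. The same 55 genes were separated between the 5 growing and 5 RIS samples, against 19.3% of all genes. DESeq2, another test on the same 24 libraries, called 33 lower.

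Individual samples show how far the pair reached. *MKI67* had 3.73 CPM in growing replicate 4 and 87.6 to 152 CPM in the other growing samples (median 96.7), and 141 CPM in RIS replicate 2 against 3.16 to 6.85 CPM in the other RIS samples (median 4.85). *TOP2A* had 16.6 CPM in growing replicate 4 and 209 CPM in RIS replicate 2, while the other growing samples lay at 169 to 279 CPM and the other RIS samples at 15.8 to 27.8 CPM. For *FOXM1* these values were 7.59 and 96.8 CPM, against 66.5 to 109 CPM and 7.31 to 10.04 CPM. Each library thus held these 3 genes at a level within the range of the other samples of the opposite group. Within replicate numbers, the median log2 difference of the 56 genes between RIS and growing was −2.71, −0.23, −3.34, −0.16, −3.32 and −2.17 for replicates 1 to 6, so that only replicates 2 and 4, which hold these libraries, were near 0. In the hairpin cells the 6 values lay between −3.15 and −2.71.

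On 22 libraries the sizes in vector cells lay beside those in hairpin cells. *MYBL2*, *ASPM* and *MKI67* had log2 fold changes of −4.26, −4.62 and −4.50 in RIS against growing, where hairpin cells had −4.77, −4.54 and −4.33. *AURKA*, *ECT2* and *CENPN*, among the smallest decreases in hairpin cells, had −1.11, −1.10 and −1.03. *BUB3* was at 0.03 (SE 0.12, adjusted p = 0.852), with 108, 133 and 164 CPM (lowest, median, highest) in the 5 growing samples and 108, 145 and 150 CPM in the 5 RIS samples. With all 24 libraries its log2 fold change was −0.06.

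*MAD2L1* and *ESPL1*, which were not called in hairpin cells, were called lower in vector cells on 22 libraries. *MAD2L1* ran from 20.3 to 52.5 CPM (median 33.8) in 5 growing samples and from 7.62 to 18.8 CPM (median 16.0) in 5 RIS samples (log2 fold change −1.17, SE 0.25, adjusted p = 0.000287). In growing replicate 4 it had 25.6 CPM and in RIS replicate 2 22.4 CPM, and with all 24 libraries its log2 fold change was −1.0 (adjusted p = 0.0167). *ESPL1* ran from 19.5 to 28.2 CPM (median 22.4) in 5 growing samples and from 9.82 to 17.8 CPM (median 14.7) in 5 RIS samples (log2 fold change −0.75, SE 0.18, adjusted p = 0.00106). As in RIS+shHMGA1, its lowest RIS samples were replicates 5 and 6, at 9.82 and 11.5 CPM. With growing replicate 4 at 18.5 CPM and RIS replicate 2 at 26.5 CPM its log2 fold change was −0.49 (adjusted p = 0.0963). The difference between hairpin and vector cells in the RAS effect was not significant for either gene, at an interaction of 0.60 (SE 0.33) for *MAD2L1* and 0.49 (SE 0.25) for *ESPL1* on 22 libraries, both with an adjusted p of 0.993.

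**Figure D2:**
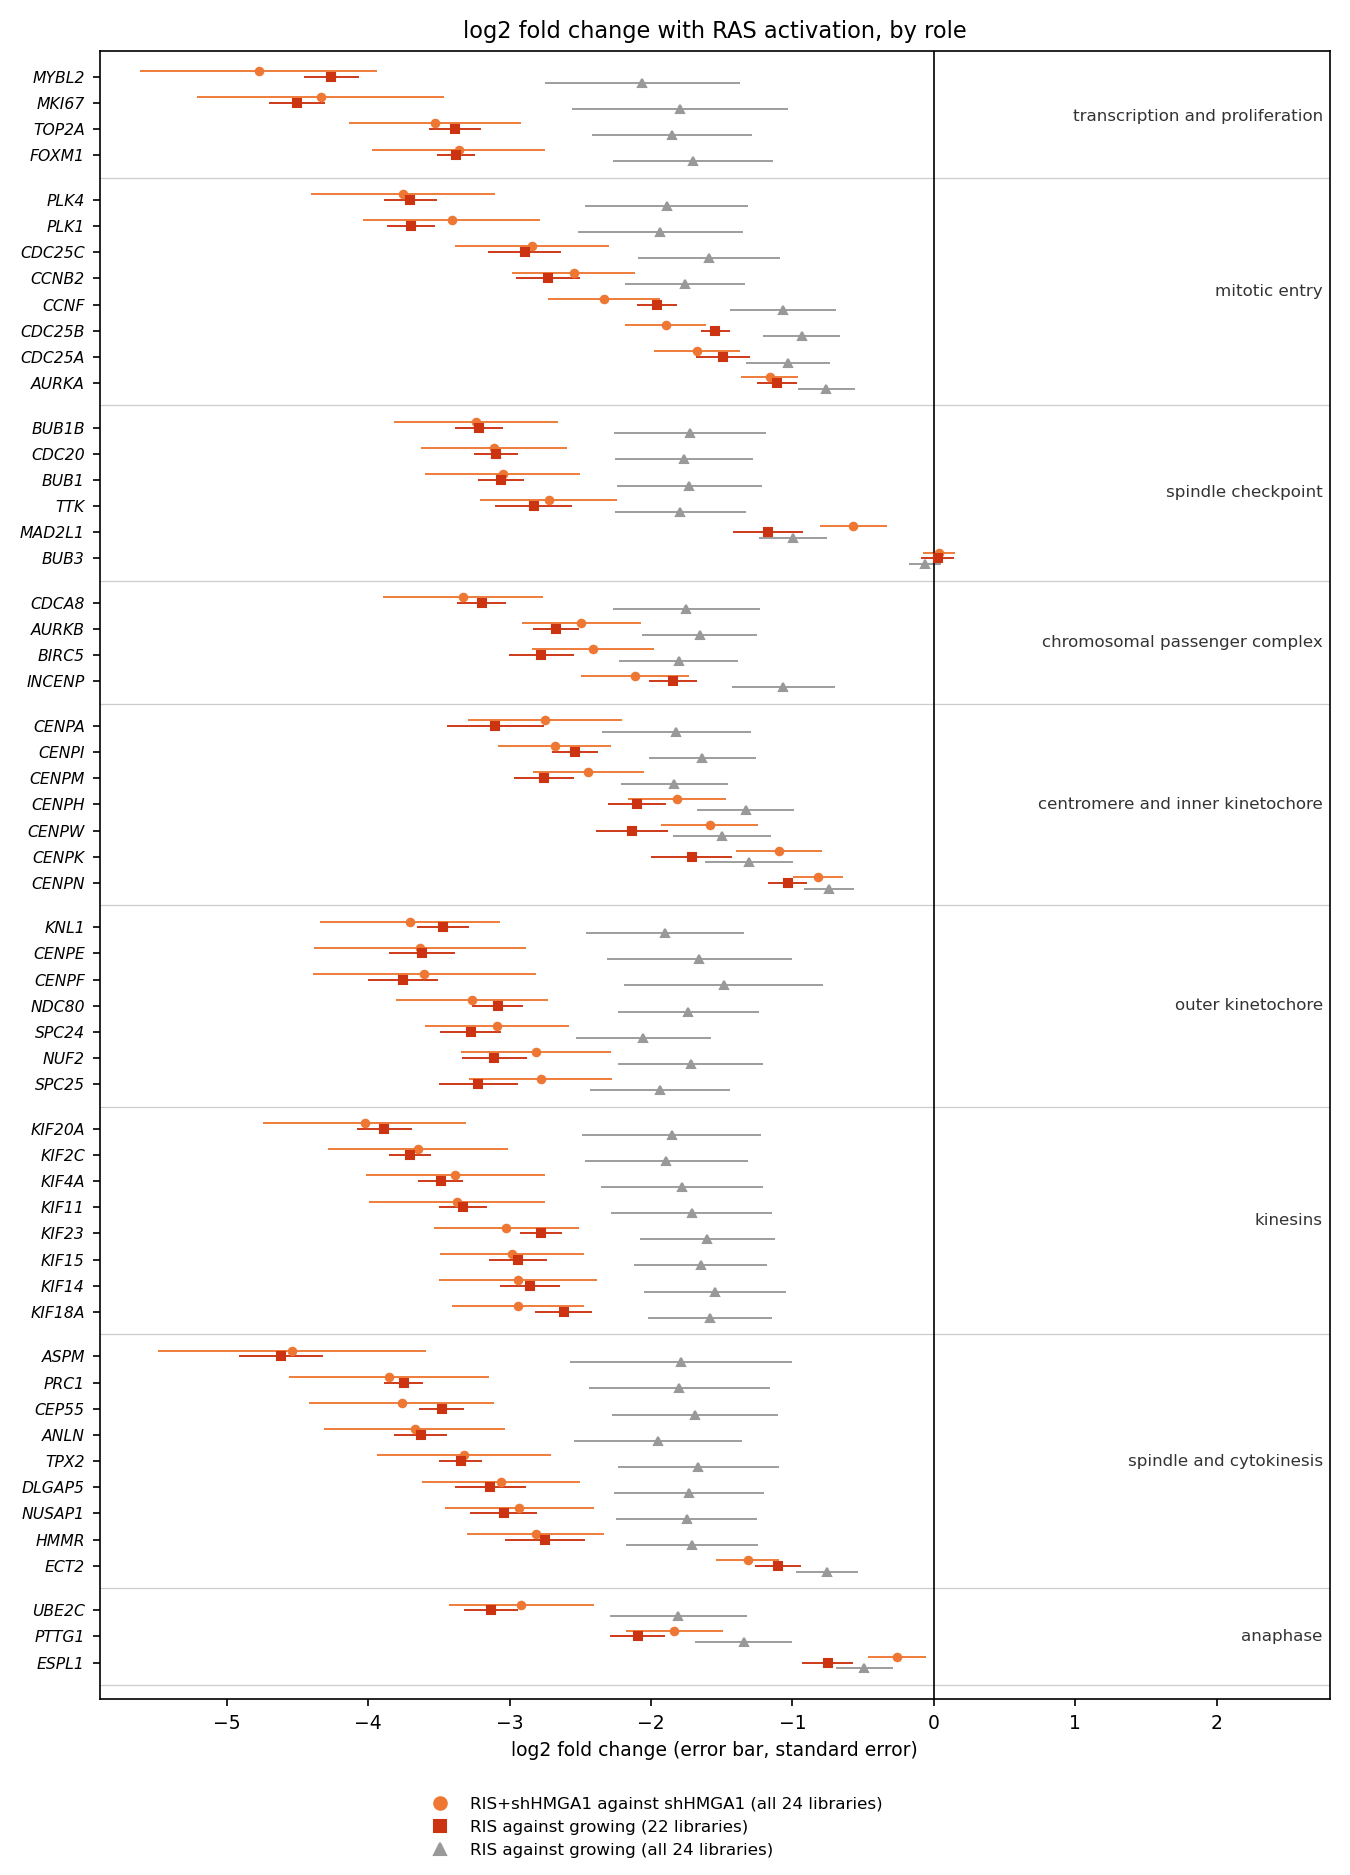
Points give the log2 fold change with RAS activation (horizontal axis, bars are standard errors) of each of the 56 genes, grouped by role, in RIS+shHMGA1 against shHMGA1 with all 24 libraries (circles), RIS against growing on 22 libraries (squares) and RIS against growing with all 24 (triangles). Circles and squares lie together for most genes, *BUB3* lies at 0 in both, and the triangles lie nearer 0 than the squares for every gene but *BUB3*.

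**Figure D3:**
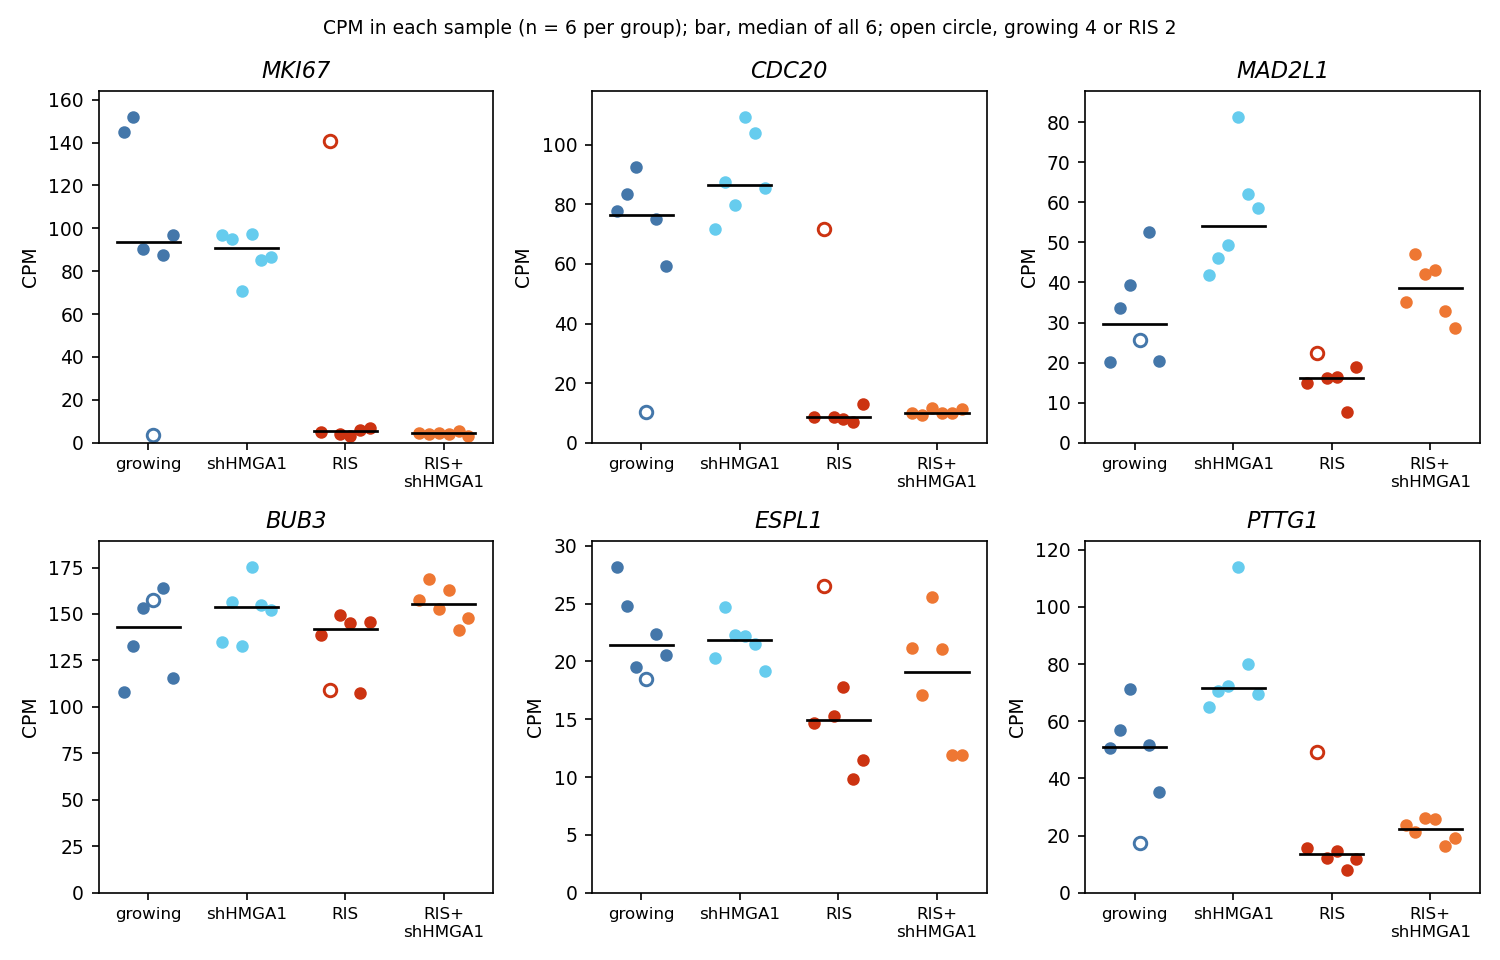
CPM (vertical axes, from 0) of 6 genes in every sample of the 4 groups (horizontal axes, n = 6 each), with the group median as a bar and growing replicate 4 and RIS replicate 2 as open circles. *MKI67*, *CDC20* and *PTTG1* are low in all 6 RIS+shHMGA1 samples, *BUB3* is level over the groups, and *MAD2L1* is higher in all 6 RIS+shHMGA1 samples than in any RIS sample.

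Many promoters of these genes share a short sequence that the choice of members did not use. The cell cycle genes homology region (CHR), written TTTGAA or TTCGAA, is the DNA element that the MuvB core binds in DREAM and in the MYBL2 and FOXM1 complexes, often beside CCAAT boxes bound by NF-Y. Promoters from 250 bases before to 50 bases after each start, in RefSeq on build GRCh38.p14, were given for 46 of the 56 genes. On either strand, 36 of the 46 genes (78.3%) had a CHR in such a window, against 19.5% of 27305 genes, and 31 (67.4%) had one within 50 bases of the start, against 6.2%. CCAAT was present in 37 of the 46 (80.4%), against 39.7%, and both in 1 promoter in 30 (65.2%), against 7.8%. The 27305 genes are all those with a promoter given, expressed here or not, and they include the 46. The part of expression in these shares was not tested. The stretches shown next, each of 30 bases on the coding strand with the CHR in capitals, come from genes of 5 roles that fell with RAS activation and from the exceptions *MAD2L1* and *ESPL1*. The *MKI67* promoter held 2 CHRs, which began 47 and 29 bases before the start, and the one nearer the start is shown. The CHRs of *CCNB2* and *PLK1* began 29 bases before the start, that of *CENPA* 18, *KIF4A* 34, *PRC1* 20 and *ESPL1* 31, and that of *MAD2L1* lay at base 25 of the transcript.
MKI67 (chr10:128126435-128126464, minus strand): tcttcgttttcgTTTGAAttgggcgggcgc
CCNB2 (chr15:59105105-59105134, plus strand): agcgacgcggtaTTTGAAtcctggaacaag
PLK1 (chr16:23678848-23678877, plus strand): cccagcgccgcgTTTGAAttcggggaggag
CENPA (chr2:26786026-26786055, plus strand): cggagcgagcgaTTTGAAcgcgagcggcgc
KIF4A (chrX:70290058-70290087, plus strand): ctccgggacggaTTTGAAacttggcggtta
PRC1 (chr15:90994538-90994567, minus strand): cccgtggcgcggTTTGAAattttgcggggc
MAD2L1 (chr4:120066807-120066836, minus strand): tgcgtcgttactTTTGAAacgcttggcggg
ESPL1 (chr12:53268256-53268285, plus strand): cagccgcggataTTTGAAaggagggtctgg

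The element did not separate the genes that fell from those that did not. In RIS+shHMGA1 against shHMGA1, 34 of the 36 genes with a CHR were lower with a median of −3.00, and the other 2 were *MAD2L1* and *ESPL1*. All 10 genes without one in the window were lower with a median of −2.88. Among other tested genes, 144 of 483 with a CHR within 50 bases of the start (29.8%) were lower, against 18.4% of 8766 without a CHR. A match describes these letters and was not tested as a binding site. *BUB3* was not in the promoter table.

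Genes of the same processes outside the 56 were taken from 3 other lists, and in RIS+shHMGA1 against shHMGA1 their counts stand beside 19.5% of all genes lower and 19.6% higher. Of 31 other kinetochore and centromere genes, 20 were lower and 1 was higher, with a median of −1.07. *HJURP*, the chaperone that loads CENP-A, had the largest decrease (log2 fold change −3.43, SE 0.59), followed by *ERCC6L* (−3.18), a translocase on the DNA threads between parting chromatids, and *SKA1* (−3.11), which couples kinetochores to microtubule ends. *BOD1*, which restrains a phosphatase at the kinetochore, was higher (log2 fold change 1.12, SE 0.26, adjusted p = 0.00139). Of 29 tested genes of the spindle and cytokinesis, 27 were lower and 0 higher, with a median of −2.46, led by the kinesin *KIF18B* (−4.09), *GTSE1* (−3.91) and *FAM83D* (−3.68). Of the 17 genes of the anaphase-promoting complex and its regulators, 2 were lower, its inhibitor *FBXO5* (−2.63) and its activator *FZR1* (−0.71), and 4 subunits were higher: *ANAPC16* (1.41), *ANAPC10* (1.16), *CDC26* (0.95) and *ANAPC13* (0.88). Counts of 2 and 4 of 17 lay near those shares of all genes. The third largest decrease of that list, *UBE2S*, was −0.53 and not called. The median of its 17 genes was 0.05, beside −2.94 for the 56 mitotic genes. On 22 libraries, RIS against growing gave 20 lower and 1 higher of 31, 26 lower of 29, and 3 lower and 4 higher of 17, where 20.5% of all genes were lower and 19.2% higher, so that the list of 17 again lay near the share of all genes. With all 24 libraries 0 were called in each list. In that comparison on 22 libraries the genes higher were *BOD1* (0.87), *ANAPC16* (1.12), *ANAPC10* (0.91), *CDC26* (0.77) and *ANAPC13* (0.72).

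Another comparison asked whether the hairpin changed mitotic transcripts in growing cells. In shHMGA1 against growing, 0 of the 56 genes passed the thresholds with all 24 libraries, where 0.135% of all genes were lower and 0.135% higher, and 6 had an unadjusted p under 0.05 in either direction, as did 13.2% of all genes. On 22 libraries 0 passed, against 1.39% of all genes lower and 1.21% higher, and 17 had an unadjusted p under 0.05, as did 38.9% of all genes. The share of the 56 genes was thus not above that of all genes in either fit. DESeq2 also called 0. The median log2 fold change was 0.31 with all libraries and 0.10 without growing replicate 4 and RIS replicate 2, and the range on 22 libraries was −0.52 (*CENPE*) to 0.82 (*HMMR*, which encodes a spindle protein and hyaluronan receptor). *MKI67* had a median of 90.7 CPM in shHMGA1 and of 96.7 CPM in the 5 growing samples (log2 fold change −0.37, SE 0.16, adjusted p = 0.0846). *MAD2L1* had 54.0 and 33.8 CPM at the median (log2 fold change 0.77, SE 0.23, adjusted p = 0.0269), and its ranges overlapped between 41.8 and 52.5 CPM.

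The hairpin was then compared within 4OHT-treated cells. In RIS+shHMGA1 against RIS with all 24 libraries, 1 of the 56 genes was higher, *MAD2L1*, and 0 were lower, where 1.77% of all genes were higher and 0.786% lower. The call was lost (count of 0) without RIS replicate 5, without RIS+shHMGA1 replicate 2, 3 or 4, and with glmTreat, a test against the fold threshold itself, and the count was 11, of which 10 were lower, without growing replicate 4. For the fit without growing replicate 4 the share of all genes called is not given here. *MAD2L1* ran from 28.6 to 47.0 CPM in RIS+shHMGA1 and from 7.62 to 22.4 CPM (median 16.2) in RIS, without overlap (log2 fold change 1.25, SE 0.24, adjusted p = 0.00442). It was higher in 6 of 6 replicate numbers, by 0.60 to 2.09 on the log2 scale. On 22 libraries 4 genes were higher and 0 lower, where 10% of all genes were higher and 2.5% lower, so that the share of mitotic genes called was not above that of all genes. The 4 were *MAD2L1* (log2 fold change 1.37, SE 0.24, adjusted p = 0.000826), *CENPK* (1.20, SE 0.28, adjusted p = 0.00333), *CENPW* (1.1, SE 0.26, adjusted p = 0.00338) and *PTTG1* (0.82, SE 0.19, adjusted p = 0.00301). With all 24 libraries the last 3 had 0.90, 0.63 and 0.24 and adjusted p of 0.0337, 0.153 and 0.576. *PTTG1* ran from 7.95 to 15.6 CPM in 5 RIS samples with 49.2 CPM in RIS replicate 2, and from 16.4 to 26.2 CPM in RIS+shHMGA1.

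Replicate numbers were taken to pair the samples of this comparison on 22 libraries. The block, however, fitted the same effect of each number in all 4 groups. It thus also joined RIS with growing and RIS+shHMGA1 with shHMGA1, which were not taken as paired. With the number as a block, 6 genes were called on 22 libraries, where 14.4% of all genes were. These were the 4 named, *BIRC5* higher (0.73, adjusted p = 0.006) and *MYBL2* lower (−0.83, adjusted p = 0.00494), and without the block the last pair had adjusted p of 0.0106 and 0.012. *BIRC5* ran from 13.7 to 30.0 CPM in RIS+shHMGA1 and from 7.36 to 14.8 CPM in 5 RIS samples, and *MYBL2* from 0.877 to 1.81 CPM and from 1.44 to 3.83 CPM, so that both pairs of ranges overlapped. With the block and all 24 libraries 1 gene was called as before, while the share of all genes called rose from 2.55% to 12.3%.

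With edgeR and no block the other 52 genes were not called in either fit, and the direction of many turned on RIS replicate 2. DESeq2 on all 24 libraries called *MAD2L1* higher and 6 genes lower, *MKI67*, *CDC25B*, *KNL1*, *CENPE*, *PRC1* and *ASPM*. The share of all genes that DESeq2 called here is not given, so these calls are not set against it. With all 24 libraries 48 of the 56 had a log2 fold change below 0 and the median was −0.93, and on 22 libraries 26 were below 0 and the median was 0.10. Within replicate numbers the median differences were −0.07, −2.73, 0.14, 0.42, 0.38 and −0.29 for replicates 1 to 6. *MKI67* had a median of 4.34 CPM in RIS+shHMGA1 and 4.85 CPM in the 5 RIS samples (log2 fold change −0.20, SE 0.21, adjusted p = 0.455), and −2.66 with all libraries (adjusted p = 0.0233). *FOXM1* likewise had 8.18 and 8.65 CPM at the median (log2 fold change −0.11, SE 0.13, adjusted p = 0.531), and −1.55 with all libraries.

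Transcript length moved with the hairpin contrasts, among the 56 genes and among all genes. Over the canonical transcripts of the 56 genes, whose exonic length is taken from GENCODE on build GRCh37, Spearman's correlation of length with log2 fold change on 22 libraries was −0.63 in shHMGA1 against growing and −0.61 in RIS+shHMGA1 against RIS. Over all genes with a length it was −0.43 and −0.47. Genes are not independent replicates, and they share the same libraries. All genes were divided by length into 4 bins of like size. The bin of shortest transcripts held 12 of the 56 genes with a median log2 fold change of 0.74 in RIS+shHMGA1 against RIS, and the bin of longest transcripts held 11 with −0.20, beside 0.34 and −0.28 over all genes. In shHMGA1 against growing the same bins had 0.51 and −0.32, beside 0.26 and −0.19. *PTTG1*, *CENPW* and *CENPK* were in the first bin, and *MAD2L1*, at 5227 bases, was in the last. The part of length in the hairpin results was not tested. In RIS+shHMGA1 against shHMGA1 the correlation was −0.26 over the 56 genes and −0.33 over all genes, and the median of the 56 genes was −2.52 in the bin of shortest transcripts and −3.53 in that of the longest.

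**Figure D4:**
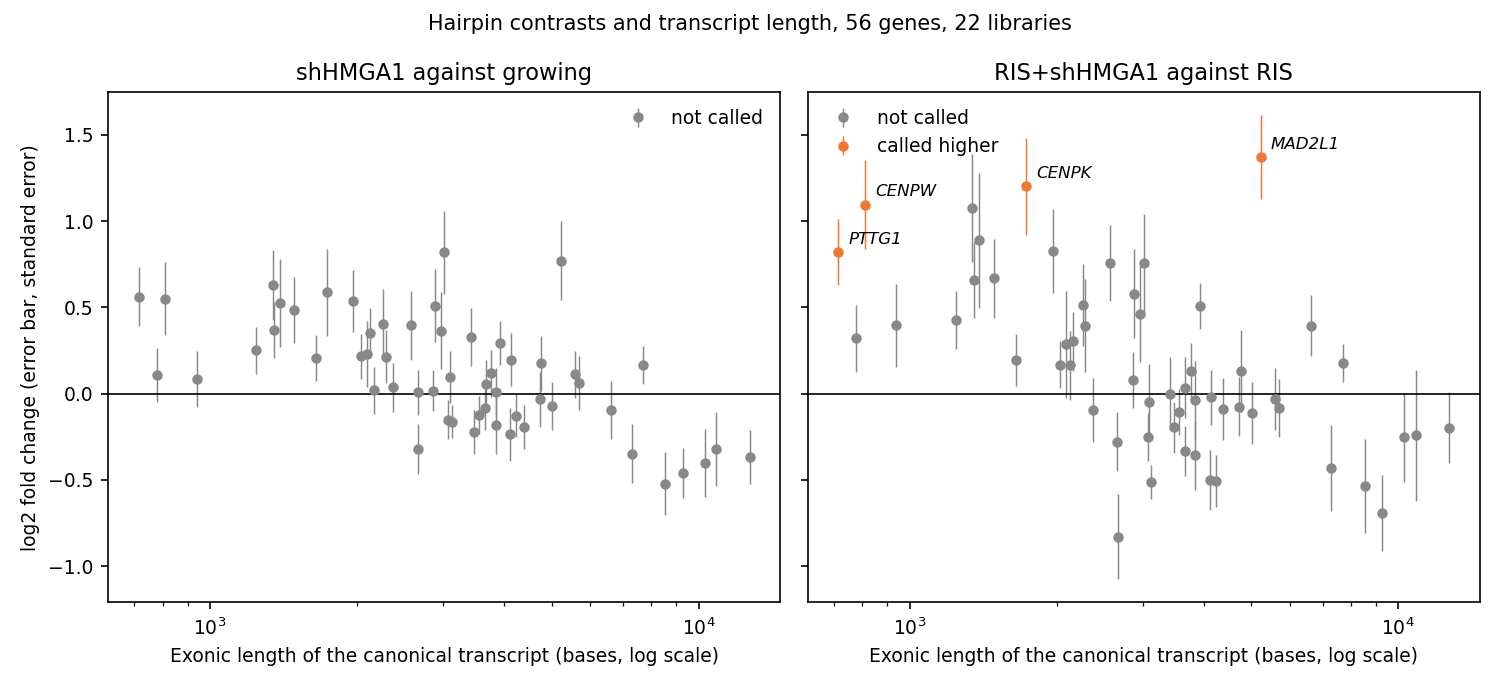
Log2 fold change (vertical axis, bars are standard errors) of the 56 genes in both hairpin contrasts on 22 libraries against the exonic length of the canonical transcript (horizontal axis, bases, log scale), with called genes in orange. Shorter transcripts lie higher in both panels, and *MAD2L1* lies above other transcripts of its length.

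The interaction asked whether the hairpin altered the response to RAS. It was significant for 0 of the 56 genes with all 24 libraries and on 22 libraries, where 0% of all genes were called lower in both fits and 0% and 0.00745% were called higher. With edgeR, 19 of the 56 had an unadjusted p under 0.05 with all 24 libraries, where 10.3% of all genes did, and DESeq2 called 0. The smallest adjusted p of the 56 genes was 0.426 with all libraries and 0.993 on 22. *MKI67* had an interaction of −2.54 with all libraries and of 0.17 (SE 0.26) on 22, so that its sign turned on the pair that stood apart.

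Set against growing vector cells, RIS+shHMGA1 cells had 50 of the 56 genes lower with all 24 libraries, where 23.9% of all genes were lower and 22% higher. The 6 not called were *BUB3* (0.16), *MAD2L1* (0.25), *ESPL1* (−0.30), *CENPK* (−0.41), *CENPN* (−0.44) and *CENPW* (−0.87, adjusted p = 0.0285). On 22 libraries *CENPW* was called as well (−1.04, adjusted p = 0.000204).

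Levels were compared between genes per kilobase of exonic length. In shHMGA1, *PTTG1* led the 56 genes at 110 CPM per kb, followed by *UBE2C* at 64.2, *ANLN* at 57.5, *CDC20* at 54.3 and *BIRC5* at 44.1 CPM per kb. Replicates varied more in these genes than in others where a library stood apart. The median coefficient of variation of the 56 genes was 17.6% in shHMGA1 and 20.9% in RIS+shHMGA1, beside 14.1% and 17.0% over all genes, and 47.5% in growing and 130% in RIS, beside 29.0% and 25.1%. Without growing replicate 4 and RIS replicate 2 it was 20.8% and 24.6%, beside 19.2% and 18.1%. The close copies *KIF4B*, *PTTG2* and *PTTG3P* had at most 2 counts in any sample, so that few reads of *KIF4A* and *PTTG1* were assigned to them.

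The genes are spread over 19 chromosomes (GRCh37, GENCODE). *MKI67* lies on the minus strand of chromosome 10 from 129894923 to 129924687, and *BUB3* on its plus strand from 124913918 to 124929983. *MAD2L1* is on the minus strand of chromosome 4 from 120976778 to 120988013, and *ESPL1* is on chromosome 12, plus strand, between 53662083 and 53687422. Counts refer to the reads over whole genes, so that isoforms were not told apart.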

How the data were processed

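Poly(A) RNA libraries (TruSeq Stranded mRNA) of 24 samples were analysed. The authors mapped the reads to hg19, per the labels with STAR 2.5.0b and cutadapt 1.10.0, and assigned them to genes by Rsubread. Raw counts per Entrez identifier are what the authors deposited. The gene annotation and strand setting of the counting are not given in the sources used here. Symbols came from RefSeq, with 23696 of 25702 identifiers matched.

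Genes were filtered with filterByExpr, normalised by TMM and tested in edgeR 4.0.16 (R 4.3.3) with a quasi-likelihood fit of 4 group means over all 24 samples. Calls needed a log2 fold change beyond 0.58 in either direction together with an FDR below 0.01. Standard errors are the log2 fold change over the square root of F. Per-sample log2 CPM has a prior count of 2. Labels call the samples biological replicates. Duplicates were sought among the 60 pairs of samples inside groups, and none were found (lowest chi-square per degree of freedom 2.81). Pairs of samples from different groups were not compared in this way. Whether the replicate numbers that the groups share pair the samples was checked by correlating deviations from the group means over genes. On 22 libraries every same-numbered pair was over 0.1 in shHMGA1 against growing (5 pairs, 0.23 to 0.54) and in RIS+shHMGA1 against RIS (5 pairs, 0.27 to 0.64), and the numbers were taken to pair these. With all 24 libraries 5 of 6 were over 0.1 in each, and in RIS+shHMGA1 against shHMGA1 5 of 6 and in RIS against growing 2 of 4 on 22 libraries, which were not taken as paired. With all 24 libraries a sample's own number was its best match in 5 of 6 for shHMGA1 against growing. For RIS+shHMGA1 against RIS this held in 2 of 6. The pairing was thus assumed from these correlations. The members, role lists and comparisons were chosen with earlier results of these data known. Single-gene values were given for *MKI67*, *TOP2A*, *FOXM1*, the 2 most abundant members of each role list, members not called in RIS+shHMGA1 against shHMGA1 and members called in a hairpin contrast, and for other lists the members called higher and the 3 largest decreases. Scripts were tested on simulated data. Alternatives were DESeq2 1.42.0, RLE normalisation, no filter, a replicate block, the contrast's samples only, glmTreat, an FDR of 0.05, and fits without single libraries or without growing replicate 4 and RIS replicate 2. A fit without both and with the block was added after seeing the data.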

Additional observations from a re-analysis of the deposited data

Results flagged for a closer look

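Each group of 6 samples was searched for a sample far from the others, for the total count, the median of the 56 genes and the 21 genes given by sample, 92 groups of values in all. A sample counted as far when its gap to the nearest sample, divided by the range of the group, was above 0.625, Dixon's critical value at the 95% level for 6 samples. Chance flags about 1 in 20 groups, and 39 were found, of which 30 were growing replicate 4 or RIS replicate 2. The 92 groups come from the same libraries and from genes that move together. They are therefore not independent, and the 39 flags cannot be weighed against that rate.

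For the median log2 CPM of the 56 genes the share of the range was 0.811 in growing replicate 4, the lowest of its group, and 0.817 in RIS replicate 2, the highest of its group. In growing replicate 4 the log2 CPM of single genes gave *MKI67* 0.851, *TOP2A* 0.822, *FOXM1* 0.815, *CDC25B* 0.732, *CDC20* 0.796, *CDCA8* 0.858, *CENPF* 0.786, *CENPE* 0.846, *KIF23* 0.837, *KIF11* 0.890, *ANLN* 0.867 and *UBE2C* 0.682. In RIS replicate 2 it gave *MKI67* 0.797, *TOP2A* 0.782, *FOXM1* 0.877, *CDC25B* 0.792, *AURKA* 0.752, *CDC20* 0.732, *BIRC5* 0.683, *CDCA8* 0.653, *CENPN* 0.779, *CENPF* 0.767, *CENPE* 0.741, *KIF23* 0.824, *KIF11* 0.787, *ANLN* 0.760, *PTTG1* 0.630 and *UBE2C* 0.835. *BUB3*, *MAD2L1*, *CENPK*, *ECT2* and *ESPL1* were not far from their group in either library.

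Other samples stood out for 1 or 2 measures each. Total count gave 0.796 for growing replicate 1 and 0.684 for RIS replicate 3, the deepest libraries of their groups. Among genes, *CENPE* (0.675) and *KIF11* (0.717) were low in shHMGA1 replicate 3, *PTTG1* (0.629) was high in shHMGA1 replicate 4, *MAD2L1* (0.627) was low in RIS replicate 5, *FOXM1* (0.656) was low in RIS+shHMGA1 replicate 2, *AURKA* (0.648) was low in RIS+shHMGA1 replicate 5 and *CDCA8* (0.668) was high in RIS+shHMGA1 replicate 6.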

How the results depend on the processing

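In RIS+shHMGA1 against shHMGA1 the count of genes lower stayed between 49 (DESeq2) and 54 (samples of the contrast only) over the alternatives, from the 53 reported, and between 52 and 53 when each of the 24 libraries was left out in turn. In RIS+shHMGA1 against growing it was 41 (glmTreat) to 51, from 50, and 49 to 51 without single libraries. In shHMGA1 against growing and in the interaction 0 genes were called under every alternative. RIS against growing moved from 0 to 33 with DESeq2 (6.21% of all genes called), to 45 at an FDR of 0.05 (11.5%) and to 55 without growing replicate 4 and RIS replicate 2, with or without the block. Single libraries gave 0 to 55, with 51 without growing replicate 4 and 55 without RIS replicate 2. RIS+shHMGA1 against RIS moved from 1 to 7 with DESeq2, of which 6 were lower and 1 higher, to 0 with glmTreat, to 18 at an FDR of 0.05, of which 16 were lower and 2 higher, to 4 without both libraries and to 6 without both and with the block, of which 1 was lower and 5 higher. Without single libraries it was 0 to 11, with 11 without growing replicate 4 and 0 without RIS replicate 5 or without RIS+shHMGA1 replicate 2, 3 or 4. The cause of these moves was not tested. For RIS+shHMGA1 against RIS, the shares of all genes called by DESeq2, at an FDR of 0.05 and without single libraries are not given here. Among 11031 values of single genes under the alternatives, 217 changed sign without a call in either fit and 1 changed sign with a call, *BIRC5* in RIS+shHMGA1 against RIS at 0.73 without both libraries and with the block. RLE normalisation and no filter on low counts gave the reported counts in each comparison.

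With the replicate number as a block, 53 genes were called in RIS+shHMGA1 against shHMGA1, 0 in RIS against growing, 0 in shHMGA1 against growing, 1 in RIS+shHMGA1 against RIS, 50 in RIS+shHMGA1 against growing and 0 in the interaction. Beside the 2 genes named for RIS+shHMGA1 against RIS, the block changed no call of the hairpin comparisons on 22 libraries.

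Counts fell to 3 reads (*CDC25C* in a RIS sample), and whether depth limited the calls was not tested. Other limits are the pair of libraries that stood apart, which decide the RIS against growing counts, 1 hairpin construct, 1 cell line and 1 time of treatment, and the bulk measurement.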
